A study of Mus musculus with 48 samples.

Results

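Chromatin accessibility was described at 8 chemokine receptor genes, Ccr2, Ccr7, Ccr8, Cxcr3, Cxcr4, Cxcr5, Cxcr6 and Cx3cr1, in tumour-infiltrating CD8 T cells of the mouse. A peak was assigned to a receptor gene when it overlapped the gene body, and otherwise when that body was the nearest of any protein-coding gene within 100 kb. This gave 52 of the 53868 peaks in the table, of which 16 touched a gene body and 36 lay outside. Cxcr4 had 12 peaks, Ccr7 11 and Cxcr5 9. Ccr2, Cxcr3 and Cx3cr1 had 5 each, Ccr8 had 3 and Cxcr6 had 2. All 52 held reads in each of the 48 libraries, with between 2 and 3543 reads per peak and library and a median of 237, so no filter on low values removed a member. On GRCm38 the gene bodies lie on chromosome 9 for Cxcr5 at chr9:44511787-44526444, Cx3cr1 at chr9:120048683-120068296, Ccr8 at chr9:120092133-120094906, Cxcr6 at chr9:123806477-123811754 and Ccr2 at chr9:124101918-124109140. The others are Ccr7 at chr11:99144199-99155077, Cxcr3 at chrX:101731535-101734147 and Cxcr4 at chr1:128588199-128592299. Peaks are numbered within each gene from the lowest to the highest coordinate. Before a gene means on its lower-coordinate side and beyond it means on its higher-coordinate side, whatever the strand. Cxcr3, Cxcr4 and Cx3cr1 lie on the minus strand, so positions beyond these genes are upstream of the start.

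Open chromatin was mapped by ATAC-seq, which sequences the sites cut by Tn5 transposase. The cells were OT-1 CD8+ T cells that carried CD45.1 and Cas9. Their T cell receptor recognises an ovalbumin peptide. They were transduced with a lentivirus carrying a guide RNA and an ametrine reporter and recovered 15 days after inoculation of B16-OVA, a melanoma line that expresses ovalbumin. Zfp219KO and Dusp5KO cells were compared with the control that the labels call OTC, and all of them carried Cas9 and the vector. The cells were sorted by Slamf6 and Tim-3 into progenitor exhausted cells (Tprog, Slamf6+Tim-3-), transitory or effector-like cells (Ttran, Slamf6+Tim-3+), terminally exhausted cells (Tterm, Slamf6-Tim-3+) and age-associated dysfunctional cells (Ttad, Slamf6-Tim-3-). Tprog, Ttran and Tterm came from aged and from young hosts, and Ttad came from aged hosts alone, which makes 21 groups. The letters A and Y of the titles were read as aged and young, and the ages themselves are not given in the sources used here. Each library pools cells of independent mice. There were 2 libraries in each of 15 groups and 3 in each of the 6 groups of young Ttran and young Tterm cells. Accessibility at Zfp219 or Dusp5 does not test whether the protein was lost, so the knockout labels are taken as given.

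Chemokine receptors are G protein-coupled receptors that steer leukocytes along gradients of chemokines. CCR7, the receptor for CCL19 and CCL21, brings naive and memory T cells into lymph nodes. CXCR5, the receptor for CXCL13, leads cells to B cell follicles and is carried by progenitor exhausted CD8 T cells, and CXCR4 binds CXCL12. CXCR3, the receptor for CXCL9 and CXCL10, and CXCR6, the receptor for CXCL16, bring effector T cells into inflamed tissue and tumours. CCR2 follows CCL2, CCR8 binds CCL1 and is best known on regulatory T cells in tumours, and CX3CR1 binds fractalkine and marks cytotoxic effector cells.

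The promoters of 5 receptors lay under a peak, and their 250 bases upstream of the annotated start are shown because these peaks are compared below. Sequences are from the RefSeq table on GRCm38.p6, written 5′ to 3′ on the strand of the gene, with matches to searched motifs in capitals. The Ccr8 window (chr9:120091883-120092132) lay under Ccr8 peak 2, Cxcr3 (chrX:101734148-101734397) under peak 3, Cxcr4 (chr1:128592300-128592549) under peak 6, Cx3cr1 (chr9:120068297-120068546) under peak 3 and Cxcr6 (chr9:123806227-123806476) under peak 1.
Ccr8: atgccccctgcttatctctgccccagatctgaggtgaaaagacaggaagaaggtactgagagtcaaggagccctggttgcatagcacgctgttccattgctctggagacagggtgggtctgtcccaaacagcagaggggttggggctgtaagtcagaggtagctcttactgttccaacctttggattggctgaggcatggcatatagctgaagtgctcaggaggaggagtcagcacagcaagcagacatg
Cxcr3: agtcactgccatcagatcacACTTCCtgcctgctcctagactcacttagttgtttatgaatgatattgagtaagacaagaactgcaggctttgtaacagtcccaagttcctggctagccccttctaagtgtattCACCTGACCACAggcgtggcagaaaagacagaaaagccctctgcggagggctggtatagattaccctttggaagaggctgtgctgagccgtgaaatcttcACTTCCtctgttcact
Cxcr4: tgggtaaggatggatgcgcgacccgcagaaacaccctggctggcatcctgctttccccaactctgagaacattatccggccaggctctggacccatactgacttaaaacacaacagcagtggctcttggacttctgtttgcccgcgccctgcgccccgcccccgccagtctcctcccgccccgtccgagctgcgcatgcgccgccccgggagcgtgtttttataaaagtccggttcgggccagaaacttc
Cx3cr1: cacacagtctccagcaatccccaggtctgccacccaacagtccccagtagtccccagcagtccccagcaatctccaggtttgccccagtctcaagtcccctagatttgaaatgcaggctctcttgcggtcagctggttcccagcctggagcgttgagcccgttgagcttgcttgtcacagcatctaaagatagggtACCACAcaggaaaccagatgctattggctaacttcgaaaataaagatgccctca
Cxcr6: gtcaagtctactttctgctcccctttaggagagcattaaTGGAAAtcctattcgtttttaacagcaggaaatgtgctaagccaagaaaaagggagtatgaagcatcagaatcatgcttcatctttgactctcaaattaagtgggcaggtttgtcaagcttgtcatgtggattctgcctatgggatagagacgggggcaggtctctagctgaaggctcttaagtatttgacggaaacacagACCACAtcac
No peak overlapped the Ccr2 window. Ccr7 and Cxcr5 had no promoter entry, so which end of these genes holds the start was not determined. Their gene-end peaks are named by coordinate alone and may cover a promoter. The Cxcr4 window was the richest in G and C, at 61.2% with 19 CpG dinucleotides, against a median of 52.4% and 6 over the 32851 windows of the table. Cxcr6 had 43.6% and 3 CpG, and Ccr8 had 53.6% and 1 CpG. Of 8 motifs searched on both strands, the RUNX motif TGTGGT occurred in the Cx3cr1, Cxcr6 and Cxcr3 windows and in 14.05% of all windows. The ETS motif GGAAGT occurred in Cxcr3, in 2 places, and in 19.7% of all windows, and the NFAT motif TGGAAA in Cxcr6 and in 18.6%. The E-box CAGGTG occurred in Cxcr3, directly beside the RUNX match, and in 17.2% of all windows. The AP-1 motif TGANTCA, the TCF/LEF motif ATCAAAG, the T-box motif GGTGTGA and the KLF motif CACACCC had no match in these windows. Their shares of all windows were 6.75%, 3.21%, 3.33% and 6.93%.

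Libraries held 5638413 to 29942755 reads in peaks, with medians of 12619905.5 in the aged and 16950433.5 in the young. Replicates differed by 2.86 to 4.7 times the counting noise (chi-square per degree of freedom), so no replicates agreed within sampling noise. The highest correlation of 13 of the 48 libraries was with a library of another group. The 3 young Zfp219 Ttran libraries were among these: each was closest to a young Zfp219 Tterm library, and their mean correlations with their own group, 0.932 to 0.935, were the lowest of all. The CD8 T cell markers had strong peaks, with library medians of 706 normalized reads at Cd8a, 1019 at Cd8b1, 1090 at Cd3e, 700.1 at Cd3g and 906 at Gzmb, and Trac had no peak. No peak was assigned to Foxp3, to Cd79a or Ms4a1 of B cells, to Lyz2 or Csf1r of myeloid cells, or to Tyr or Dct of melanoma. Ncr1 of natural killer cells was near 0, with a median of 10.1, while Klrb1c had 677. Peaks were present at Cd4 (357), Zbtb7b (797), Pax5 (193), Itgam (428), Cd68 (597), Spi1 (224), Mlana (166), Pmel (512) and Mitf (285).

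The summed level of a receptor is the total of normalized reads over its peaks. Normalized reads are reads divided by 1 size factor per library, and they carry no correction for peak length, so levels are compared between groups and not between genes. Ccr7 spanned the widest range, from 7786 ± 309 (SD, n = 2) in aged OTC Tprog cells to 2389 ± 78.6 (SD, n = 3) in young Dusp5 Tterm cells, a ratio of 3.26. The ratios of the highest to the lowest group were 2.47 for Ccr8, 2.24 for Cxcr5, 2.2 for Ccr2, 2.14 for Cxcr3, 1.64 for Cxcr6, 1.51 for Cxcr4 and 1.46 for Cx3cr1. When the 21 groups were ranked by mean, the libraries of neighbouring groups overlapped in 8 of 20 neighbouring pairs for Ccr7 and in 19 of 20 for Cxcr6. The count was 13 for Ccr8, 14 for Cxcr5, 16 for Cxcr3, 17 for Ccr2 and for Cx3cr1, and 18 for Cxcr4. Most steps in the order of these genes were therefore within the spread of the libraries.

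**Figure D1:**
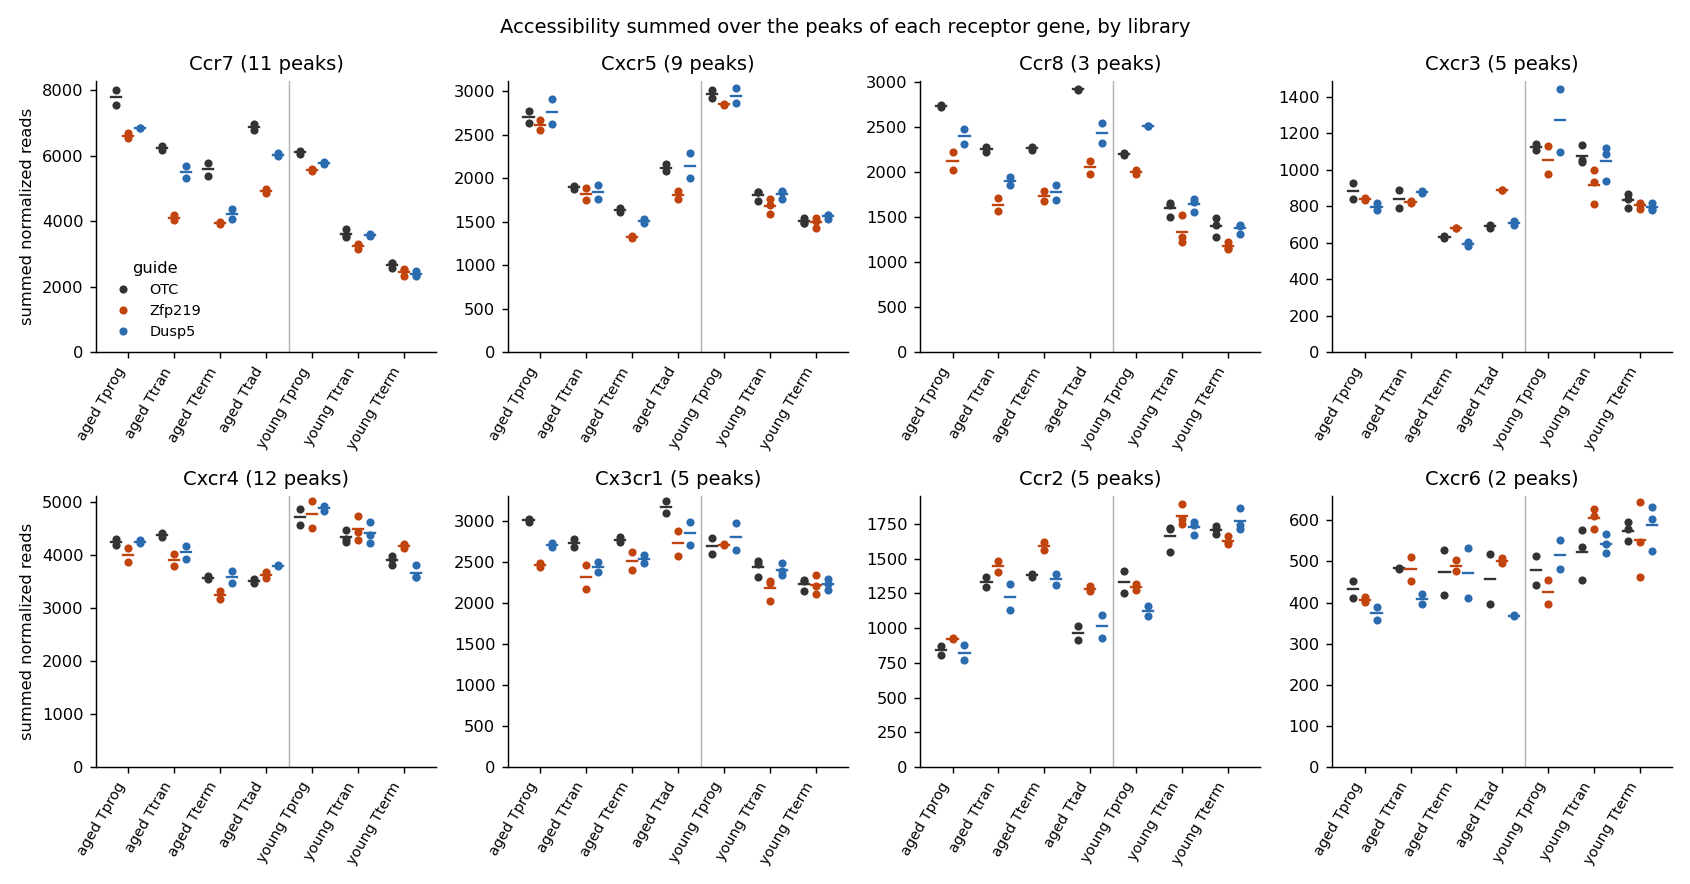
Summed normalized reads over the peaks of each receptor gene (vertical axis, linear from 0) in each state and host age (horizontal axis). Points are libraries, short lines are group means, and colours are the guides OTC, Zfp219 and Dusp5. In OTC cells, Ccr7 falls from Tprog to Tterm and stands higher in aged than in young hosts in all 3 shared states, and Ccr2 runs the other way.

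In OTC cells of aged hosts, summed Ccr7 levels were 7786 ± 309 in Tprog, 6884 ± 138 in Ttad, 6235 ± 76.7 in Ttran and 5589 ± 264 in Tterm (SD, n = 2). In young hosts they were 6111 ± 62.3 in Tprog (n = 2), 3622 ± 126 in Ttran and 2679 ± 90.4 in Tterm (n = 3). None of these neighbouring groups overlapped within an age. Cxcr5 was highest in Tprog at both ages, with 2704 ± 101 in aged and 2969 ± 68 in young hosts, and lowest in Tterm, with 1633 ± 31.7 and 1507 ± 34.3. Cxcr4 moved less, with 4241 ± 80.7 in aged Tprog against 3573 ± 42 in aged Tterm and 4717 ± 212 against 3904 ± 90 in young hosts. Ccr8 was highest in aged Ttad at 2921 ± 7.1, followed by aged Tprog at 2737 ± 21.3, and lowest in young Tterm at 1399 ± 109.5. Cxcr3 ran from 1124 ± 23.6 in young Tprog to 632 ± 5.19 in aged Tterm.

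Ccr2 had the opposite order among these OTC groups, from 1707 ± 31.4 in young Tterm and 1661 ± 95.3 in young Ttran down to 966 ± 69.3 in aged Ttad and 839 ± 44.8 in aged Tprog. Cxcr6 lay between 433 ± 29.1 in aged Tprog and 575 ± 23.6 in young Tterm. Cx3cr1 lay between 2235 ± 70.2 in young Tterm and 3174 ± 106 in aged Ttad.

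Tprog cells were compared with Tterm cells of the same host age, both from OTC, to ask how receptor loci differ between the ends of the exhaustion series. In young hosts 32 of the 52 peaks passed the test, 29 higher and 3 lower in Tprog, where 26.5% of all peaks were called. In aged hosts 25 passed, 22 higher and 3 lower, where 20.1% of all peaks were called. Of all peaks, 13.9% were called higher and 12.6% lower in young hosts, and 8.88% and 11.2% in aged hosts. The median log2 fold change of the 52 was 0.53 in young and 0.36 in aged hosts, against 0.01 over all peaks at both ages. Calls are by limma at a Benjamini-Hochberg adjusted p under 0.05 over all 53868 peaks, and every fold change was taken on log2(value + 1), which understates the change of weak peaks. A smaller share of cells with an open site and a less open site in each cell cannot be told apart in these bulk libraries.

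Ccr7 had more peaks higher in Tprog than any other of the 8 genes. All 11 Ccr7 peaks passed in young hosts and 7 of 11 in aged hosts. The largest difference was at peak 11 (chr11:99170736-99171681), 15659 bases beyond the higher-coordinate end of the gene. Its normalized reads in young OTC cells were 582 and 547 in Tprog, 108, 114 and 99.2 in Ttran and 38.6, 35.4 and 52.3 in Tterm. In aged OTC cells they were 676 and 605 in Tprog, 214 and 234 in Ttran, 246 and 287 in Ttad and 148 and 93.5 in Tterm. The Tprog libraries stood above all others at both ages with no overlap. Tprog against Tterm gave log2 change 3.73 with SE 0.22, adjusted p = 3.8e-27 in young hosts, and log2 change 2.43 with SE 0.24, adjusted p = 2.9e-14 in aged hosts.

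The strongest Ccr7 peak, peak 6 (chr11:99154026-99155586), covers the higher-coordinate end of the gene. It held 1187 and 1069.5 normalized reads in young Tprog and 609, 650.3 and 567 in young Tterm, without overlap (log2 change 0.89 with SE 0.09, adjusted p = 2.9e-14). In aged hosts it held 1328 and 1213 in Tprog and 1049 and 1138 in Tterm, a log2 fold change of 0.22 that did not pass (adjusted p = 0.11). Peak 4 (chr11:99142416-99145031), at the other end of the gene, was higher in Tprog at both ages. Its aged values were 991 and 938 in Tprog and 633 and 500.4 in Tterm (log2 change 0.78 with SE 0.13, adjusted p = 1.5e-06). In the plot along the Ccr7 locus, the means of aged Tterm and aged Tprog cells lie close together at peaks 5, 6 and 7 and farthest apart, as a ratio, at peak 11.

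**Figure D2:**
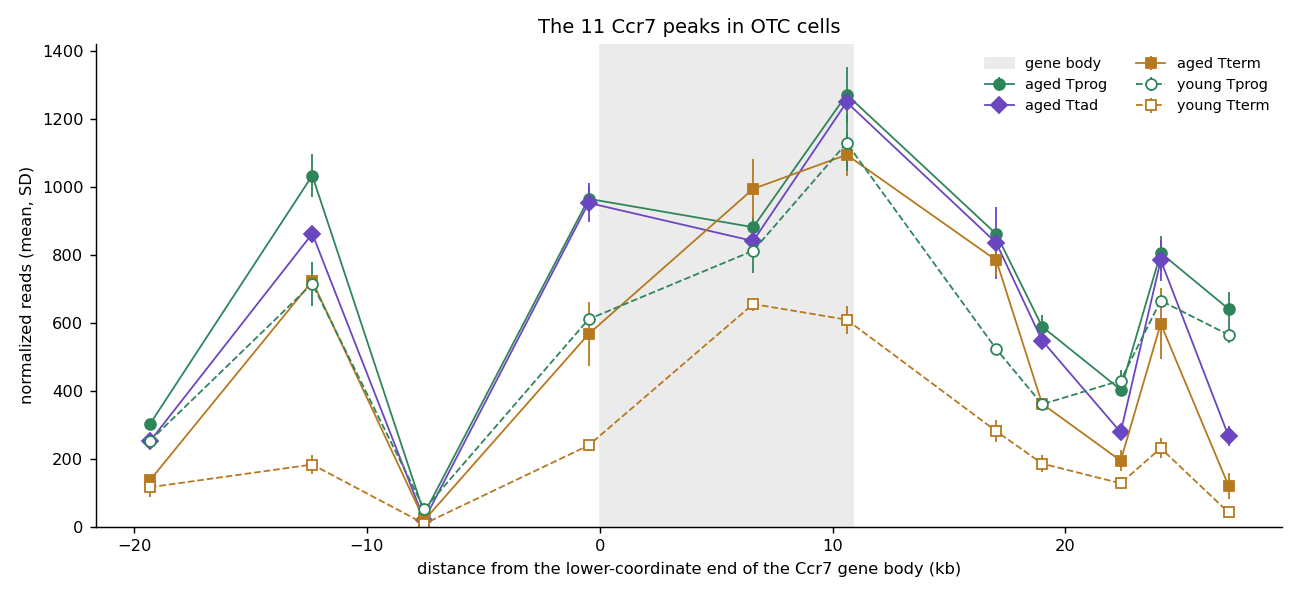
Normalized reads (mean and SD, n = 2 or 3 libraries) at the 11 Ccr7 peaks in OTC cells, by the distance of the peak centre from the lower-coordinate end of the gene body, which is shaded. Lines only join the points of a group. At the outermost peak on the right, aged and young Tprog cells stand far above the 3 other groups plotted, aged Ttad, aged Tterm and young Tterm.

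At Cxcr5, 6 of 9 peaks were higher in Tprog than in Tterm in aged hosts and 7 of 9 in young hosts, and none was lower. The largest difference among all members in aged hosts was at Cxcr5 peak 8 (chr9:44554836-44555667), 28392 bases beyond the gene. It held 125 and 168 normalized reads in aged Tprog, 27.1 and 6.38 in Ttran, 41.9 and 51.7 in Ttad and 15.3 and 21.1 in Tterm (log2 change 2.94 with SE 0.53, adjusted p = 6.5e-06 for Tprog against Tterm). Young OTC cells gave 120.4 and 139 in Tprog and 18.3, 22 and 5.62 in Tterm (log2 change 3.19 with SE 0.48, adjusted p = 7.7e-08). Tprog libraries did not overlap the others at this peak at either age. The strongest Cxcr5 peak, peak 3 (chr9:44526245-44527374), covers the higher-coordinate gene end and held 929.9 and 928 in young Tprog against 382, 363 and 386 in young Tterm (log2 change 1.3 with SE 0.10, adjusted p = 2.7e-20). In aged hosts it held 999.8 and 1050.5 against 667 and 624 (log2 change 0.67 with SE 0.11, adjusted p = 5.9e-07). B cells also use Cxcr5, and of their markers Pax5, Cd79a and Ms4a1 only Pax5 had a peak. Its level was 247 to 256 in aged Tprog and 112 to 155 in aged Tterm. In young hosts it was 329 to 339 and 153 to 163, and its part in the Cxcr5 difference was not tested.

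Cxcr4 had 5 of 12 peaks higher in Tprog at each age and none lower. The aged call at peak 10 was lost without any single one of the compared libraries (0.44 to 0.61). That at peak 12 was lost without either aged OTC Tprog library or aged OTC Tterm replicate 1 (0.42 to 0.87). Among the young calls, peak 5 was lost without young OTC Tprog replicate 1 (0.37) or 2 (0.44), and peak 9 without replicate 1 (1.16). The strongest Cxcr4 peak, peak 11 (chr1:128614369-128615735), held 1130.0 and 1044 in aged Tprog and 689.7 and 767 in aged Tterm (log2 change 0.58 with SE 0.09, adjusted p = 2.7e-07). Young hosts gave 1113 and 1064 and 839, 850.0 and 830.1 (log2 change 0.37 with SE 0.08, adjusted p = 0.0002). The CpG-rich promoter, under peak 6, differed less, with 936 and 898 in aged Tprog and 743 and 647 in aged Tterm (log2 change 0.40 with SE 0.10, adjusted p = 0.0014). In young hosts the promoter peak differed by 0.29 (SE 0.09, adjusted p = 0.011). The aged promoter call was lost without aged OTC Tterm replicate 2 (0.30, adjusted p = 0.086), and the young call without young OTC Tprog replicate 2 (0.16, adjusted p = 0.39) and young OTC Tterm replicate 2 (0.26, adjusted p = 0.054).

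The Ccr8 promoter peak was higher in Tprog at both ages. It held 1403 and 1386 in young Tprog and 892, 863 and 733 in young Tterm (log2 change 0.75 with SE 0.08, adjusted p = 3.5e-13). Aged Tprog held 1751 and 1758 and aged Tterm 1422 and 1394 (log2 change 0.32 with SE 0.09, adjusted p = 0.0042). Cxcr3 had 2 of 5 peaks, peaks 4 and 5, higher in Tprog at each age. The young call at the weak peak 5, 1.42 (SE 0.50, adjusted p = 0.025), was lost without young OTC Tprog replicate 1 (1.59, adjusted p = 0.069), young OTC Tprog replicate 2 (1.25, adjusted p = 0.18), young OTC Tterm replicate 2 (1.35, adjusted p = 0.067) and young OTC Tterm replicate 3 (1.43, adjusted p = 0.051). The strongest Cxcr3 peak was peak 4 (chrX:101736915-101738142), 2768 bases beyond the gene on its upstream side. It held 406 and 431 in aged Tprog and 260.4 and 254 in aged Tterm (log2 change 0.70 with SE 0.13, adjusted p = 2.7e-05). The Cxcr3 promoter peak did not pass at either age, with log2 fold changes of 0.18 (adjusted p = 0.45) in aged and 0.23 (adjusted p = 0.24) in young hosts.

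Ccr2 moved in the other direction, with 3 of 5 peaks lower in Tprog in aged hosts and 2 of 5 in young hosts. Peak 3 (chr9:124099040-124100680), 1238 bases before the gene body, held 203 and 163 in aged Tprog and 417 and 355 in aged Tterm (log2 change -1.08 with SE 0.15, adjusted p = 9.3e-09). Peak 4 (chr9:124102786-124103959), inside the gene body, held 152 and 148 in young Tprog, 299.8, 344 and 283 in Ttran and 284, 326 and 287 in Tterm (log2 change -0.99 with SE 0.18, adjusted p = 4e-06 for Tprog against Tterm). At both peaks the Tprog libraries stood below the Tterm libraries of the same age, with no overlap. Ccr2 is also used by myeloid cells, of whose markers Lyz2 and Csf1r had no peak. The summed level of Itgam, Cd68 and Spi1 was 898 to 978 in aged Tprog and 1287 to 1353 in aged Tterm. In young hosts it was 1118 to 1359.5 and 1312 to 1377, and its part in the Ccr2 difference was not tested.

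At Cxcr6, 1 of 2 peaks was called lower in Tprog in young hosts and none in aged hosts. Cxcr6 peak 2 (chr9:123807805-123808696), inside the gene body, held 91 and 71 in young Tprog and 173, 116 and 155 in young Tterm, without overlap (log2 change -0.85 with SE 0.24, adjusted p = 0.0044), a call lost without young OTC Tprog replicate 2 (-0.68, adjusted p = 0.12). In aged hosts it gave -0.63 and did not pass (adjusted p = 0.081). The Cxcr6 promoter peak held 334 and 385 in aged Tprog and 327 and 389 in aged Tterm, with overlapping libraries, and a log2 fold change of 0.01 (adjusted p = 0.98). The strongest Cx3cr1 peak, peak 2 (chr9:120054469-120056776) inside the gene body, gave 0.03 in aged hosts (adjusted p = 0.85). In young hosts it was called higher in Tprog, with 1714 and 1610.2 against 1420.2, 1455 and 1509.6 (log2 change 0.19 with SE 0.07, adjusted p = 0.045), a call lost without young OTC Tprog replicate 1 (0.14, adjusted p = 0.32), young OTC Tprog replicate 2 (0.23, adjusted p = 0.069), young OTC Tterm replicate 1 (0.16, adjusted p = 0.13) and young OTC Tterm replicate 2 (0.18, adjusted p = 0.091). The Cx3cr1 promoter peak gave -0.09 in aged (adjusted p = 0.78) and -0.06 in young hosts (adjusted p = 0.82). Cx3cr1 peak 5 (chr9:120074076-120075379), singled out after its values were seen, lies 5780 bases upstream of the gene, on the side of Ccr8. It held 569.5 and 525 in aged Tprog and 253 and 289 in aged Tterm (log2 change 1.02 with SE 0.16, adjusted p = 4.1e-07), and 483 and 394 and 197, 186 and 184 in young hosts (log2 change 1.21 with SE 0.15, adjusted p = 9.9e-11).

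The Tprog to Tterm difference was itself compared between host ages. It was lower in aged hosts, that is less positive or more negative, at 9 of the 52 peaks and higher at none, where 2.32% (0.512% higher, 1.81% lower) of all peaks were called. Ccr7 held 6 of these 9 peaks, and Ccr2, Ccr8 and Cxcr5 held 1 each. The calls at the Ccr8 promoter peak and at Ccr7 peaks 5 and 11 were each lost in several fits that left out 1 library. Without aged OTC Tterm replicate 1 they gave -0.42, -0.39 and -0.97, and all were lost. The largest difference of the 9 was at Ccr7 peak 2 (chr11:99130801-99132908), 11291 bases before the gene body. This peak held 669 and 761 in young Tprog and 177, 212 and 159.7 in young Tterm, and 1077 and 988 in aged Tprog and 713 and 732 in aged Tterm. Aged Tterm cells were thus close to young Tprog cells at this site, and the difference of log2 fold changes was -1.45 (SE 0.17, adjusted p = 3.9e-10). At the Ccr7 gene-end peak 6 the difference was -0.67 (SE 0.13, adjusted p = 0.00049).

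**Figure D3:**
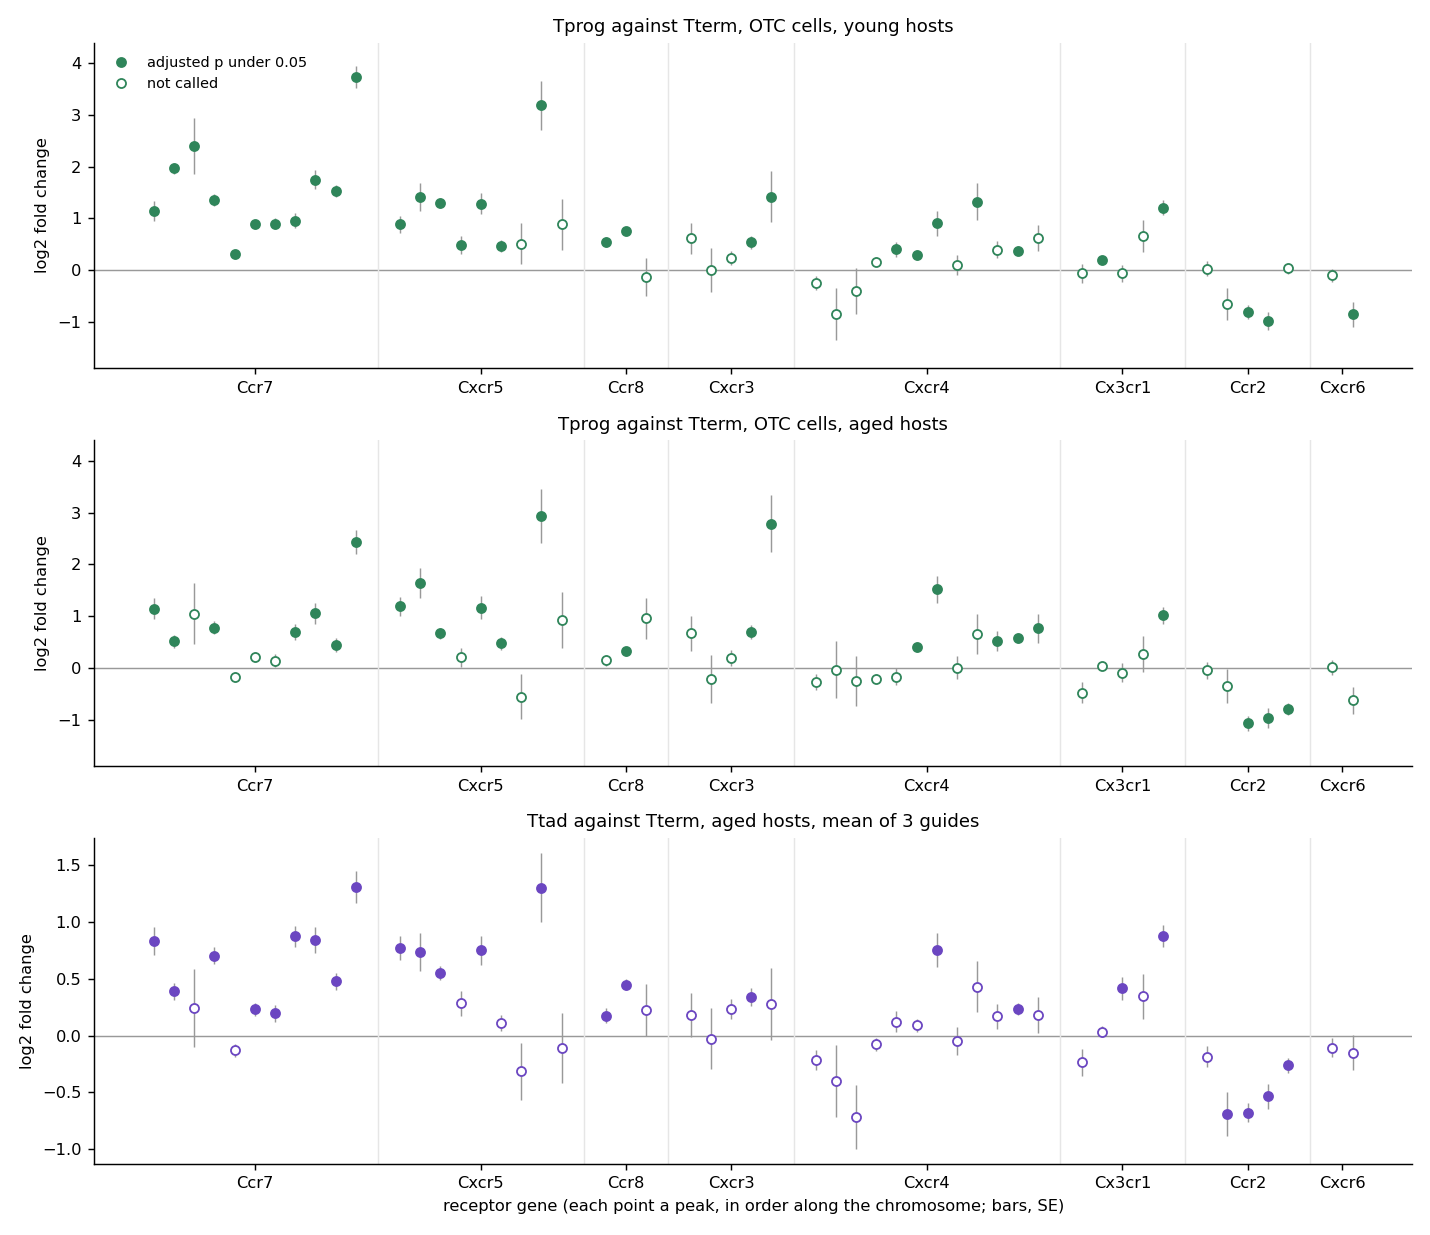
Log2 fold change with its SE (vertical axis) at each of the 52 peaks, in order along the chromosome within each gene, for Tprog against Tterm in young and in aged OTC cells and for Ttad against Tterm in aged hosts over 3 guides. Filled points passed an adjusted p of 0.05. Ccr7 and Cxcr5 peaks lie mostly above 0 and Ccr2 peaks near or below 0 in each panel.

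Ttran cells, which carry both sorting markers, differed from Tterm at fewer of these peaks than from Tprog. Against Tterm, 14 peaks were called in young hosts, all higher in Ttran, where 8.38% (5.02% higher, 3.36% lower) of all peaks were called, and 3 in aged hosts, 2 higher and 1 lower, where 3.22% (1.87% higher, 1.35% lower) were. Against Tprog, 24 were called in young hosts, 3 higher and 21 lower, where 16.9% (9.07% higher, 7.82% lower) of all peaks were called, and 21 in aged hosts, 6 higher and 15 lower, where 17% (9.99% higher, 6.98% lower) were. At Ccr7 peak 11, Ttran exceeded Tterm in young hosts (log2 change 1.34 with SE 0.19, adjusted p = 2.8e-07) and was below Tprog (log2 change -2.39 with SE 0.22, adjusted p = 2.1e-15). Ccr2 peak 4 was higher in Ttran than in Tprog in young hosts (log2 change 1.03 with SE 0.18, adjusted p = 3e-06). In aged hosts its Ttran libraries held 254 and 212 and the comparison with Tprog gave log2 change 1.17 with SE 0.19, adjusted p = 1.6e-06. The young Ttran against Tterm count fell to 8 without young OTC Ttran replicate 1. The aged count of 3 fell to 1 without aged OTC Tterm replicate 1 or aged OTC Ttran replicate 2, and the aged Ttran against Tprog count fell to 12 without aged OTC Ttran replicate 2.

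Ttad cells, which carry neither sorting marker, had mean levels between those of Tterm and Tprog at most Ccr7 and Cxcr5 peaks in aged OTC cells. The strongest peaks of the sorting markers were in between as well. Slamf6 held 478 to 506 in Ttad, 527 to 562 in Tprog and 318 to 367 in Tterm. Havcr2 held 825 to 934, 523 to 585 and 1212 to 1351. Over all peaks, aged OTC Ttad replicate 2 was closest to an aged OTC Tprog library. The intermediate levels are thus not particular to the receptors. Against aged OTC Tterm, 12 of the 52 peaks were called in Ttad, 9 higher and 3 lower, where 7.28% (3.02% higher, 4.26% lower) of all peaks were called. Ccr7 held 5 of the higher peaks, Cxcr5 2, and Ccr8 and Cx3cr1 1 each, and all 3 lower peaks were of Ccr2. Against aged OTC Tprog, 9 were called, all lower in Ttad, where 6.55% (3.82% higher, 2.73% lower) were called. These were 4 Cxcr5 peaks, 3 Cxcr4 peaks and 1 each of Ccr7 and Cxcr3. The comparison with Tterm averaged over OTC, Zfp219 and Dusp5 cells called 25, 21 higher and 4 lower, where 16.5% (7.4% higher, 9.06% lower) were called. Of these, 9 of 11 Ccr7 and 5 of 9 Cxcr5 peaks were higher and 4 of 5 Ccr2 peaks lower.

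At the Ccr8 promoter, Ttad cells had the highest level of the aged OTC groups, with 2096 and 1988 normalized reads against 1422 and 1394 in Tterm (log2 change 0.54 with SE 0.09, adjusted p = 5.1e-06). The comparison with Tprog gave 0.22 and did not pass (adjusted p = 0.12). Foxp3, which defines the regulatory T cells in which Ccr8 is best known, had no peak. The summed level of Cd4 and Zbtb7b was 1108 to 1239 in Ttad and 1340.1 to 1405 in Tterm. The part of other T cells in the Ccr8 difference was not tested. Ccr7 peak 4 held 993 and 912 in Ttad, next to 991 and 938 in Tprog and above 633 and 500.4 in Tterm (log2 change 0.76 with SE 0.13, adjusted p = 1.6e-05 against Tterm). At Ccr7 peak 11, Ttad lay above Tterm (log2 change 1.17 with SE 0.24, adjusted p = 0.00035) and below Tprog (log2 change -1.26 with SE 0.24, adjusted p = 0.00013). The first of these calls was lost without aged OTC Tterm replicate 2 (0.84, adjusted p = 0.083). Ccr2 peak 3 held 221 and 223 in Ttad, near Tprog and below Tterm (log2 change -0.79 with SE 0.15, adjusted p = 9.2e-05). The count against Tterm fell to 6 without aged OTC Tterm replicate 2 and to 7 without aged OTC Ttad replicate 1. The count against Tprog fell to 3 without aged OTC Tprog replicate 1, and to 5 without aged OTC Tprog replicate 2 or aged OTC Ttad replicate 1.

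Host age was compared in OTC cells over the 3 states present at both ages. Of the 52 peaks, 30 passed the test, 18 of them higher with age and 12 lower, where 36.5% (17.3% higher, 19.1% lower) of all peaks were called. The receptors divided by gene. Ccr7 had 10 of 11 peaks higher and none lower, and Ccr8 had all 3 higher. Ccr2 had 4 of 5 lower, Cxcr3 2 of 5 lower and Cxcr6 1 of 2 lower, with none higher. Cx3cr1 had 3 higher and 1 lower, Cxcr5 1 higher and 3 lower, and Cxcr4 1 each way. The calls at Cx3cr1 peaks 1, 3 and 5 and at Cxcr6 peak 2 were each lost in 1 or more fits that left out 1 library. Cx3cr1 peak 1 gave 0.17 without aged OTC Tprog replicate 2, and Cxcr6 peak 2 gave -0.31 without aged OTC Tterm replicate 1. The median log2 difference of the 52 peaks was -0.07, against 0.00 over all peaks. The column headers number the aged and the young libraries as separate sets, and those sets and host age cannot be told apart.

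Markers of other cells and of the sort also differed between host ages. The summed myeloid markers in OTC cells were 898 to 978 in aged and 1118 to 1359.5 in young Tprog, 1259 to 1365 and 1413 to 1425 in Ttran, and 1287 to 1353 and 1312 to 1377 in Tterm. The ranges of the ages were apart in Tprog and Ttran and overlapped in Tterm. Pax5 was at 247 to 256 and 329 to 339 in Tprog, 120.3 to 142 and 169.5 to 259 in Ttran, and 112 to 155 and 153 to 163 in Tterm. The strongest peak of the sorting marker Slamf6 was higher in aged hosts in each state, at 527 to 562 against 369.6 to 389.7 in Tprog, 485 to 603 against 294 to 338 in Ttran, and 318 to 367 against 112 to 155 in Tterm. Havcr2, which encodes Tim-3, was at 523 to 585 in aged and 656 to 688 in young Tprog, without overlap, and its ranges overlapped in Ttran and Tterm. The part of these markers in the age differences at Ccr2, Cxcr5 and the other receptors was not tested.

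The largest increase with age was at Ccr7 peak 2, whose Ttran libraries held 857 and 835 normalized reads in aged and 366, 356 and 356 in young hosts. Every aged library stood above every young library of the same state (log2 change 1.25 with SE 0.07, adjusted p = 5.7e-30 over 3 states). The Ccr8 promoter peak was also higher in aged hosts (log2 change 0.53 with SE 0.05, adjusted p = 1.1e-16), with aged Ttran at 1443 and 1399.7 and young Ttran at 1086, 1021 and 943. Cxcr3 peak 4 was lower, with 260.4 and 254 in aged and 376, 362 and 434 in young Tterm (log2 change -0.51 with SE 0.07, adjusted p = 9.4e-09). The largest decrease was at the weak Cxcr3 peak 5 (chrX:101754499-101755014), 20352 bases beyond the gene on its upstream side. It held 9.03 and 7.97 in aged and 39.7, 32.1 and 26.4 in young Ttran. Its log2 difference was -1.60 (SE 0.30, adjusted p = 6.2e-06), and -1.06 with a pseudocount of 8. The strongest Ccr2 peak, peak 5 (chr9:124114629-124115592), gave -0.34 over the 3 states (SE 0.06, adjusted p = 8.3e-06). It held 314 and 278 in aged and 511 and 564 in young Tprog, without overlap. In Ttran and in Tterm its aged and young libraries overlapped. Its Tprog to Tterm difference was lower in aged hosts (-0.82 with SE 0.16, adjusted p = 0.00049). The gene-end peak of Cxcr5 was higher in aged hosts (log2 change 0.44 with SE 0.06, adjusted p = 7.4e-10) although 3 other Cxcr5 peaks were lower. The Cxcr4 promoter gave -0.12 (adjusted p = 0.078) and the Cxcr6 promoter -0.12 (adjusted p = 0.26).

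Zfp219KO cells were compared with OTC cells in aged hosts over 4 states. Of the 52 peaks, 27 were called, 8 higher and 19 lower in Zfp219KO, where 25.8% (12.1% higher, 13.7% lower) of all peaks were called. Ccr7 had 9 of 11 peaks lower, Cxcr4 4 of 12, Cxcr5 3 of 9, Ccr8 2 of 3 and Cx3cr1 1 of 5. Ccr2 had 3 of 5 higher, Cxcr3 2 of 5, Cxcr5 2 of 9 and Cxcr4 1 of 12, and no Cxcr6 peak was called. The median log2 fold change was -0.13, against 0.01 over all peaks. The strongest Slamf6 peak was also lower in aged Zfp219KO cells, without overlap. It held 448 to 496 against 527 to 562 in OTC for Tprog, and 309 to 318 against 485 to 603 for Ttran. Tterm gave 203 to 248 against 318 to 367, and Ttad 276 to 313 against 478 to 506. Havcr2 was lower in Ttran and overlapped in the other states. The part of these sorting markers in the receptor differences was not tested. The aged OTC libraries are shared by this comparison, the comparison of Dusp5KO with OTC and the comparison of host ages, so their values are given side by side and not as independent results.

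Ccr7 peak 4 held 679.6 and 755 normalized reads in Zfp219KO Tprog, 353 and 405 in Ttran, 341 and 378 in Tterm and 519.7 and 583 in Ttad. The matching OTC libraries held 991 and 938, 672 and 550.0, 633 and 500.4 and 993 and 912. Every Zfp219KO library stood below every OTC library of its state (log2 change -0.64 with SE 0.06, adjusted p = 1.2e-13 over 4 states). Ccr7 peak 2 gave -0.62 (SE 0.06, adjusted p = 5.8e-14) and the gene-end peak 6 -0.38 (SE 0.05, adjusted p = 4e-10). The Ccr8 promoter peak fell (log2 change -0.38 with SE 0.04, adjusted p = 1.1e-11), with 1468 and 1356 in Zfp219KO Ttad against 2096 and 1988 in OTC Ttad. The largest decrease was at the weak Cxcr4 peak 2 (chr1:128529873-128530285), -0.79 (SE 0.27, adjusted p = 0.023), a call lost without aged Zfp219 Ttad replicate 2 (-0.65, adjusted p = 0.092), aged Zfp219 Tterm replicate 2 (-0.72, adjusted p = 0.062) and aged Zfp219 Ttran replicate 1 (-0.73, adjusted p = 0.059). Among peaks with a mean of at least 20 normalized reads, the largest increase was at Cxcr5 peak 2 (chr9:44517282-44517957) inside the gene body, 0.70 (SE 0.15, adjusted p = 8.8e-05), while the Cxcr5 gene-end peak fell (log2 change -0.34 with SE 0.05, adjusted p = 3.4e-07). The weaker Cxcr3 peak 5, singled out after its values were seen, had 1.44 (SE 0.27, adjusted p = 1.9e-05) over the 4 states, and 0.90 with a pseudocount of 8. It held 37 and 19.3 in Zfp219KO and 30.6 and 26.6 in OTC Tprog, which overlap. In the other states Zfp219KO stood above OTC, with 28.6 and 18.8 against 9.03 and 7.97 in Ttran, 19 and 19.5 against 5.45 and 1.83 in Tterm, and 42.4 and 21.3 against 5.03 and 6.16 in Ttad.

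In aged Ttad cells alone, 17 of the 52 peaks were called, 5 higher and 12 lower in Zfp219KO, where 8.23% (3.66% higher, 4.56% lower) of all peaks were called. Ccr7 held 7 of the lower peaks and Ccr2 3 of the higher. The calls at Ccr2 peak 3 and Ccr7 peak 1 were lost without any single one of the compared Ttad libraries. Ccr2 peak 3 then gave 0.37 to 0.51. Those at Ccr2 peak 4 and at Ccr7 peaks 7, 8 and 10 were lost in some of these fits. Summed Ccr7 reads were 4859 and 4982 in Zfp219KO Ttad and 6786 and 6982 in OTC Ttad, and summed Ccr2 reads were 1299.7 and 1267 and 917 and 1015, without overlap in either case. Among peaks with a mean of at least 20, the largest differences in each direction were at Ccr7 peak 4 (log2 change -0.79 with SE 0.13, adjusted p = 9e-06) and at Ccr2 peak 2 (chr9:124079634-124080818), with 67.8 and 85.3 against 30.2 and 38.2 (log2 change 1.14 with SE 0.34, adjusted p = 0.02). The latter call was lost without aged OTC Ttad replicate 1 (0.98, adjusted p = 0.17), aged Zfp219 Ttad replicate 1 (1.3, adjusted p = 0.058) and aged Zfp219 Ttad replicate 2 (0.98, adjusted p = 0.2). The summed myeloid markers were 1239 to 1287 in Zfp219KO Ttad and 1107 to 1217 in OTC Ttad, and their part in the Ccr2 difference was not tested. The count of 17 fell to 7 without aged Zfp219 Ttad replicate 1, 8 without its replicate 2, 9 without aged OTC Ttad replicate 1 and 11 without its replicate 2.

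In young hosts the Zfp219 comparison called 5 peaks, all lower, where 7.07% (1.92% higher, 5.15% lower) of all peaks were called. These were 2 each of Ccr7 and Ccr8 and the Cxcr3 promoter peak, whose window held the ETS, E-box and RUNX matches. Young Tterm cells held 296, 294 and 288 at that promoter with Zfp219KO and 293, 373 and 323 with OTC, which overlap, and young Ttran cells held 324, 276 and 283 and 459, 412 and 441, which do not (log2 change -0.34 with SE 0.08, adjusted p = 0.0018 over 3 states). The Ccr8 promoter gave -0.21 (SE 0.04, adjusted p = 0.00076). The count fell to 3 without young OTC Tterm replicate 2 or young Zfp219 Tterm replicate 3. The 3 young Zfp219 Ttran libraries, which were closest to Tterm libraries, held 6589023 to 7952298 reads in peaks. A comparison over Tprog and Tterm alone, which leaves out those 3 libraries and compares no Ttran cells, was added after the data were seen. It called 1 of the 5 peaks, Ccr8 peak 1 (-0.30, adjusted p = 0.00402), where 2.99% of all peaks were called. The Cxcr3 promoter then gave -0.22 (adjusted p = 0.214) and the Ccr8 promoter -0.14 (adjusted p = 0.126). Tested as a difference between ages, the Zfp219 effect was lower in aged hosts at 13 peaks and higher at 1, where 9.11% (4.09% higher, 5.01% lower) of all peaks were called. Ccr7 held 6 of the lower peaks and Cxcr4 4. This count of 14 fell to 9 without aged OTC Tterm replicate 2 or aged Zfp219 Tterm replicate 1 and to 8 without aged Zfp219 Tterm replicate 2. Over Tprog and Tterm alone it was 5, all lower in aged hosts and where 4.03% of all peaks were called, namely Ccr7 peaks 2, 4 and 7 and Cxcr4 peaks 2 and 11.

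**Figure D4:**
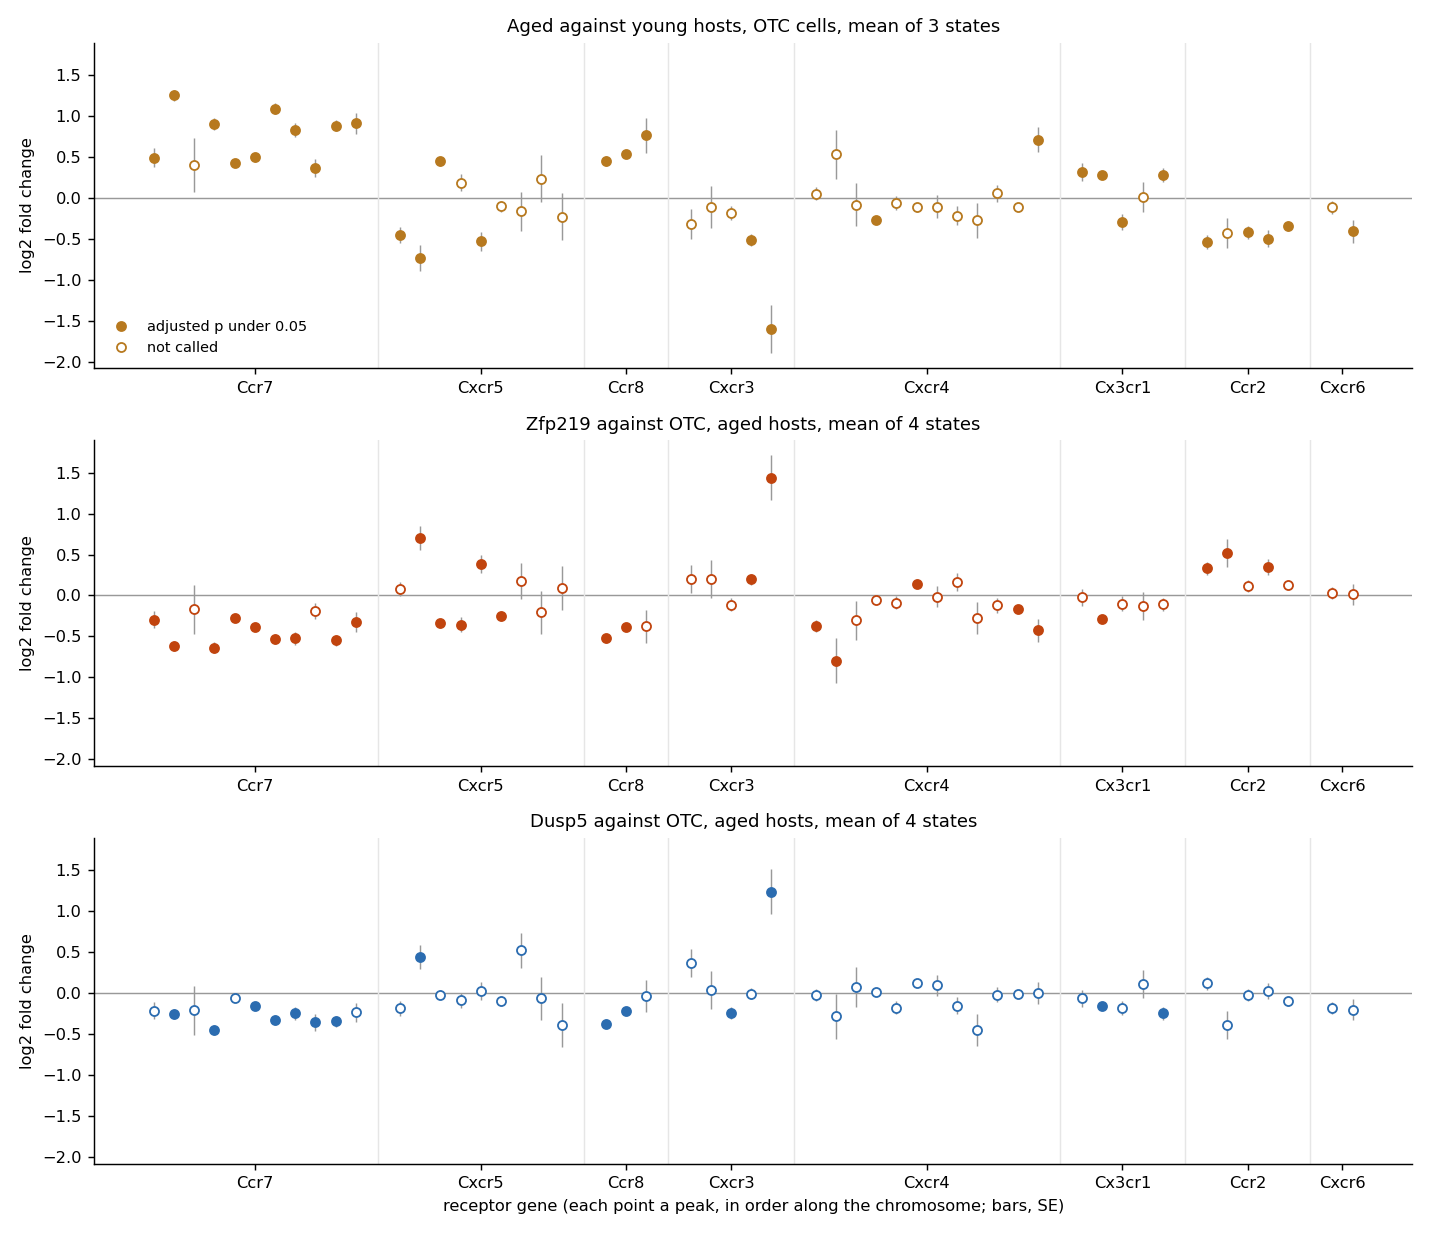
Log2 fold change with its SE (vertical axis) at each of the 52 peaks for aged against young OTC cells, and for Zfp219 and Dusp5 against OTC cells in aged hosts. Filled points passed an adjusted p of 0.05, and the 3 panels share the aged OTC libraries. Ccr7 points lie above 0 in the age panel and below 0 in both knockout panels.

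Dusp5KO cells differed from OTC cells at fewer receptor peaks. In aged hosts over 4 states, 14 of the 52 were called, 2 higher and 12 lower, where 12.2% (4.35% higher, 7.87% lower) of all peaks were called. Ccr7 had 7 of 11 lower, Ccr8 2 of 3, Cx3cr1 2 of 5 and Cxcr3 1 of 5, and no peak of Ccr2, Cxcr4 or Cxcr6 was called. Among these lower calls, Cx3cr1 peak 5, Cxcr3 peak 3 and Ccr7 peaks 6 and 8 were each lost in several fits that left out 1 library. All of them were lost without aged OTC Tterm replicate 2, with log2 changes of -0.22, -0.23, -0.14 and -0.24. The 2 higher peaks were Cxcr3 peak 5, 1.24 (SE 0.27, adjusted p = 0.00061) and 0.76 with a pseudocount of 8, and Cxcr5 peak 2, 0.44 (SE 0.15, adjusted p = 0.03). The Cxcr5 call was lost in 8 of the 16 fits that left out 1 library, those without aged Dusp5 Tprog replicate 1 (0.43, adjusted p = 0.065), aged Dusp5 Ttad replicate 2 (0.30, adjusted p = 0.2), aged Dusp5 Tterm replicate 2 (0.40, adjusted p = 0.082), aged Dusp5 Ttran replicate 1 (0.36, adjusted p = 0.13), aged OTC Tprog replicate 1 (0.40, adjusted p = 0.089), aged OTC Ttad replicate 1 (0.41, adjusted p = 0.072), aged OTC Tterm replicate 2 (0.41, adjusted p = 0.073) and aged OTC Ttran replicate 1 (0.32, adjusted p = 0.16). Ccr7 peak 4 held 599 and 746 in Dusp5KO Tprog, 539 and 548 in Ttran, 347 and 434 in Tterm and 643 and 642 in Ttad, against the OTC values given above (log2 change -0.45 with SE 0.06, adjusted p = 1.5e-07). The Ccr8 promoter gave -0.22 (SE 0.04, adjusted p = 0.00016), and with quantile normalization it was -0.10 and did not pass (adjusted p = 0.131). The count fell to 8 with quantile normalization and to 9 without aged OTC Tterm replicate 2. In aged Ttad alone 2 peaks were called, both lower, where 2.88% (1.21% higher, 1.67% lower) of all peaks were. These were Ccr7 peak 4 and the Ccr8 promoter, and the count fell to 1 with quantile normalization. Without aged OTC Ttad replicate 1 limma called 0 peaks, with 7 at an unadjusted p under 0.05, and edgeR called 2 with all libraries.

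In young hosts 3 peaks were called for Dusp5KO, all lower and all of Ccr7, where 3.82% (1.8% higher, 2.02% lower) of all peaks were called. The largest was at Ccr7 peak 9 (chr11:99166277-99166875), with 336 and 358 in Dusp5KO and 409 and 451 in OTC young Tprog cells (log2 change -0.58 with SE 0.10, adjusted p = 6.6e-05 over 3 states). Peak 11 gave -0.53 (SE 0.12, adjusted p = 0.0034). Tested between ages, the Dusp5 effect differed at 4 peaks and was higher with age at 1 and lower at 3, where 4% (1.27% higher, 2.73% lower) of all peaks were called. The lower peaks were Ccr7 peak 2 and Ccr8 peaks 1 and 2. The calls at Ccr7 peak 2 and Ccr8 peak 2 were each lost in several fits that left out 1 library. Without aged OTC Tterm replicate 1 both were lost, with -0.31 and -0.23. The count fell to 2 without any one of aged Dusp5 Ttran replicate 2, aged OTC Tterm replicate 1, young OTC Tterm replicate 3 and young OTC Ttran replicate 3. Direct comparison of Zfp219KO with Dusp5KO cells was not tested.

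Peaks of a gene varied together to different degrees across the 21 groups. The median Pearson correlation between peaks of a gene, on log2 group means, was 0.86 over the 55 pairs of Ccr7 peaks and 0.67 over the 10 pairs of Ccr2, and no pair of either gene was negative. It was 0.29 over the 66 pairs of Cxcr4, 18 of them negative, and 0.16 over the 10 pairs of Cx3cr1, 3 of them negative. Cxcr5 had 0.52, Cxcr3 0.44 and Ccr8 0.43, and the only pair of Cxcr6 had 0.60. Between genes, the summed levels of Ccr7 and Ccr8 had r = 0.95, those of Cxcr3 and Cxcr4 0.85, and those of Ccr2 and Cxcr6 0.83, while Ccr2 and Ccr7 had -0.87. Ccr8 and its neighbour Cx3cr1 on chromosome 9 also had 0.95. These values describe 21 groups whose libraries are common to all genes, and depth and size factor are shared by them.

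Among 12431 genes with a summed mean of at least 100 normalized reads outside the lists, the pattern most like Cxcr5 over the 21 groups was that of Mfap5 (r = 0.98), followed by Tcf7 (0.97), which encodes the transcription factor TCF1 of progenitor exhausted cells, and Aff3 (0.97). For Ccr7 these were Tomm20 (0.99), Cd83 (0.98), an activation marker, and Gm3646 (0.98). For Ccr2 they were Mta3 (0.97), Zfp652 (0.97) and Glrx (0.96), and for Ccr8 Gramd1b (0.96), Gpr107 (0.96) and St6gal1 (0.96). Cx3cr1 shared Gpr107 (0.94) and St6gal1 (0.92) with Ccr8, and its next was Ap3b1 (0.91). Cxcr3 had Cd101 (0.93), Scd2 (0.91) and Pkd2l1 (0.91), Cxcr4 had Scd2 (0.90), Gm52008 (0.90) and Hesx1 (0.89), and Cxcr6 had Atp8b4 (0.90), Plekhd1 (0.90) and Zfp839 (0.89).

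Peaks of the other chemokine receptors, 50 in all, were more often lower than higher in Tprog. Against Tterm, 7 were higher and 16 lower in aged hosts and 9 higher and 17 lower in young hosts, with median log2 fold changes of -0.30 and -0.32. For these lists too the shares over all peaks were 8.88% higher and 11.2% lower in aged and 13.9% and 12.6% in young hosts. As shares of its 50 peaks, the list had 14% higher and 32% lower in aged and 18% higher and 34% lower in young hosts. The strongest peak of Ccr6, the receptor for CCL20, was higher in Tprog, by a log2 difference of 1.88 (SE 0.24, adjusted p = 5.1e-10) in aged and 3.08 (SE 0.22, adjusted p = 3.8e-22) in young hosts. The strongest peaks of Ccr3, Xcr1 and Ccr1, which lie with Ccr2 on chromosome 9, were lower in Tprog, with log2 fold changes of -1.15 (adjusted p = 3.0e-04), -1.04 (adjusted p = 7.2e-04) and -0.45 (adjusted p = 4.4e-09) in aged hosts. Of 25 ligand peaks, 6 were lower and none higher in aged hosts and 8 lower and 2 higher in young hosts, with the strongest Ccl1 peak at -0.42 (adjusted p = 0.0016) and -0.45 (adjusted p = 1.5e-04). Of 113 peaks at genes of receptor signalling, 21 were lower at each age, and 3 and 5 were higher in aged and young hosts, which is 2.65% higher and 18.6% lower in aged and 4.42% higher and 18.6% lower in young hosts. The strongest Rgs1 peak, of a gene that damps G protein signalling, was at -0.80 (adjusted p = 1.6e-10) in aged and -0.60 (adjusted p = 5.6e-08) in young hosts.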

How the data were processed

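ATAC-seq values came as 1 table of 53868 peaks by 48 libraries. Per the submitters' processing notes the tools were Bowtie2 2.2.9, Picard 2.8.0, SAMtools 1.3.1, MACS2 2.1.1 and DESeq2 1.28.1, with build mm10, and their order and settings are not given in the sources used here. The deposited signal values are read counts divided by 1 size factor per library: 100% of values were whole multiples of 1 step per library within a tolerance of 0.001, and the authors' reads were recovered from these steps. Coordinates are as the table gives them.

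Peaks were assigned with the RefSeq table of GRCm38.p6. log2(value + 1) was fitted with limma 3.58.1 (trend, 21 group means, all 48 libraries), with Benjamini-Hochberg adjustment over all peaks and a threshold of 0.05. The model was tested on simulated data. Named peaks are each gene's strongest peak, its promoter or gene-end peak, and the largest called change in each direction and comparison among peaks with a mean of at least 20. The receptors, lists and tests were chosen with earlier results of these data known. Other settings tried were quantile normalization, a pseudocount of 8, leaving out the weakest 25% of peaks, the replicate number as a block, the compared groups alone, edgeR 4.0.16 (quasi-likelihood, TMM) on recovered reads, each library left out and, added after seeing the data, the young Zfp219 comparisons over Tprog and Tterm alone. Groups of 2 or 3 libraries limit the precision, and reads carry no molecular identifiers, so they need not be separate molecules.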

Additional observations from a re-analysis of the deposited data

Results flagged for a closer look

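Effects were compared between host ages by an interaction contrast in limma, and 3 such comparisons called member peaks. For Tprog against Tterm in OTC cells, 9 peaks differed between ages. The largest, Ccr7 peak 2, had a difference of -1.45 (SE 0.17, adjusted p = 3.9e-10). For Zfp219 against OTC, 14 peaks differed, and 5 over Tprog and Tterm alone without the 3 young Zfp219 Ttran libraries, which were closest to young Zfp219 Tterm libraries. Cxcr5 peak 2 had 0.76 (SE 0.22, adjusted p = 0.019), a call lost without aged OTC Tprog replicate 1 (0.70, adjusted p = 0.052), aged OTC Ttran replicate 1 (0.59, adjusted p = 0.086) and aged Zfp219 Tterm replicate 2 (0.68, adjusted p = 0.057). Over Tprog and Tterm alone it had 0.55 (adjusted p = 0.283). Cxcr4 peak 2 had -1.38 (SE 0.42, adjusted p = 0.024), lost without aged Zfp219 Tterm replicate 2 (-1.29, adjusted p = 0.057), aged Zfp219 Ttran replicate 1 (-1.3, adjusted p = 0.053), young OTC Tprog replicate 2 (-1.15, adjusted p = 0.087), young Zfp219 Tprog replicate 2 (-1.29, adjusted p = 0.055) and young Zfp219 Ttran replicate 2 (-1.17, adjusted p = 0.054). For Dusp5 against OTC, 4 peaks differed, and the calls at Ccr7 peak 2 and Ccr8 peak 2 were each lost in several fits that left out 1 library. Cxcr3 peak 5 had 1.76 (SE 0.42, adjusted p = 0.0048), and 1.16 with a pseudocount of 8. Ccr8 peak 1 (chr9:120082116-120083618) had -0.55 (SE 0.08, adjusted p = 2.7e-06).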

How the results depend on the processing

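Only the 105 named values that passed in the main fit were followed here, so a reversal was unlikely from the outset. Named values that did not pass were not followed. None of the 105 reversed. Of 634 values of named peaks under other settings, 607 kept their direction and side of the threshold and 27 fell short of it, and of 1067 values with 1 library left out, 933 and 134 did. With quantile normalization the Dusp5 count in aged hosts was 8 and in aged Ttad 1. With the compared groups alone the young Zfp219 count was 3, the young Dusp5 count 5 and the aged Ttad Dusp5 count 1. Over Tprog and Tterm alone, with the 3 young Zfp219 Ttran libraries left out, a setting chosen after seeing the data, the young Zfp219 count was 1 and its difference between ages 5, with fewer libraries compared. With 1 library left out, counts for Tprog against Tterm ran from 22 to 24 (aged), 26 to 31 (young) and 6 to 9 (aged minus young). Ttran against Tterm ran from 1 to 4 (aged) and 8 to 12 (young), and Ttran against Tprog from 12 to 16 and 19 to 21. Ttad ran from 6 to 11 against Tterm, 23 to 27 over the guides and 3 to 7 against Tprog, and host age from 27 to 31. Zfp219 ran from 24 to 27 (aged), 3 to 6 (young), 7 to 11 (aged Ttad) and 8 to 15 (aged minus young). Dusp5 ran from 9 to 14, 2 to 4, 0 to 2 and 2 to 6 in the same order. In these fits a group left with 1 library is assumed to vary like the others.

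Libraries with the same replicate number did not deviate together (r from -0.0148 to 0.0146 in aged and -0.0184 to 0.0170 in young hosts). With the replicate block, counts went from 25 to 24 for Ttad against Tterm over the guides, 24 to 23 for Ttran against Tprog in young hosts and 17 to 16 for Zfp219 in aged Ttad, and no other count changed.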

Other observations

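Chemokine ligand peaks were more often higher than lower in aged OTC cells, with 10 of 25 higher and 1 lower (limma, adjusted p under 0.05), where 17.3% of all peaks were called higher and 19.1% lower. The strongest peak of Cx3cl1, which encodes the ligand of CX3CR1, had a log2 difference of 1.51 (SE 0.09, adjusted p = 5.5e-28) between aged and young hosts. That of Ccl1, which encodes the ligand of CCR8, had 0.63 (SE 0.06, adjusted p = 3.5e-16). In aged Zfp219KO cells, compared with the same aged OTC libraries, 7 of 25 ligand peaks were lower and none higher, where 13.7% of all peaks were called lower and 12.1% higher. Cx3cl1 had -1.0 (SE 0.08, adjusted p = 1.2e-18) and Ccl1 -0.45 (SE 0.05, adjusted p = 3.0e-11). In young Zfp219KO cells Cx3cl1 had -0.46 (adjusted p = 3.3e-05) and Ccl1 -0.39 (adjusted p = 1.1e-07).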
